A study of Mus musculus with 3 samples.

Results

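Imprinted genes were read in deposited RNA-seq files of mouse distal colon. The members were a list of 40 genes, called imprinted genes below. All but Ascl5 are known from the literature to be expressed from a single parental allele in at least some tissue. No parental origin was assigned to Ascl5, which is still counted with the others. Of the 40 genes, 39 had their symbol among the 24346 gene symbols of the files, and Ddc-as is not analysed here. The series holds 3 files of 1 group: distal colon of WT mice at 8 weeks of age, with the strain label JAX, which names a supplier, and the treatment label steady-state. Polyadenylated RNA was taken with TRIzol and made into Illumina TruSeq libraries, and nothing in the labels tells separate animals from repeats of the same RNA. The names of the deposited tables carry the same index and lane and differ only in a part number, as consecutive parts of the reads of a single library would, in which case the spread between files is read sampling alone. Levels are FPKM, which relate fragments to transcript length and sequencing depth, summed over the isoforms of a gene. Replicates 1, 2 and 3 had 3.78e+06, 3.79e+06 and 1.24e+06 mapped fragments by an estimate from the deposited 95% bounds. The spread between the files was close to that of sampling noise, so all 3 stand for 1 sample here, and a mean ± SD over the 3 files is the measurement error of that sample and holds no spread between animals. The files carry no allele information, and every statement on parental origin below is background from the literature. In bulk tissue, fewer cells of a type and less RNA per cell cannot be told apart.

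Genomic imprinting marks a stretch of DNA with methylation in the germ line of only the mother or the father. Genes near such an imprinting control region are then read from only the maternal or only the paternal chromosome, often with a long non-coding RNA on the opposite allele that silences its neighbours. Many of these genes govern growth of the fetus and placenta and are shut down in most tissues after birth, while others, such as Ube3a, are imprinted in only a few cell types.

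The isoforms of 3 of the genes, Gnas, Grb10 and Mest, begin at alternative starts. In Gnas and Grb10 such starts are known to divide transcripts of different parental origin, whereas Mest is classed here as paternally expressed. The 250 bases before starts of these genes are shown because the isoform results below turn on them. They are RefSeq promoter sequences on GRCm38.p6, printed from 5′ to 3′ on the gene's strand, with each CG dinucleotide, the site of the methylation mark, in capitals. Gnas is shown at the start of Nesp (chr2:174284070-174284319, + strand), which encodes a neuroendocrine secretory protein and is known to be maternally expressed, at the first of the exon 1A starts (chr2:174327518-174327767, + strand), where paternally expressed non-coding transcripts are known to begin, and at the start of Gαs (chr2:174329756-174330005, + strand). The exon 1A window ends at the start of isoform NM_001310083, and the more abundant non-coding NR_003258 starts 146 bases downstream of it. The nearest Gαs isoform of the files starts 64 bases downstream of the start in the RefSeq table.
Gnas Nesp start: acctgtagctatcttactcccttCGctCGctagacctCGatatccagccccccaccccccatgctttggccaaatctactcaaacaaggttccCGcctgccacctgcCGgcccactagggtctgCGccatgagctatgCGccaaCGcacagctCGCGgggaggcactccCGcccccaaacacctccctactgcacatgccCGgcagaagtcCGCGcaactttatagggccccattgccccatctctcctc
Gnas exon 1A start: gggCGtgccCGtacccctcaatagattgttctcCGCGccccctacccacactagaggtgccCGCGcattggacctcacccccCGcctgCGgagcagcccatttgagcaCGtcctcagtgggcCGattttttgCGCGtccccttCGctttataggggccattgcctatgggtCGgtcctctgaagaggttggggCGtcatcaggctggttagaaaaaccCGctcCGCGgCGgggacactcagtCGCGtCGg
Gnas G alpha s start: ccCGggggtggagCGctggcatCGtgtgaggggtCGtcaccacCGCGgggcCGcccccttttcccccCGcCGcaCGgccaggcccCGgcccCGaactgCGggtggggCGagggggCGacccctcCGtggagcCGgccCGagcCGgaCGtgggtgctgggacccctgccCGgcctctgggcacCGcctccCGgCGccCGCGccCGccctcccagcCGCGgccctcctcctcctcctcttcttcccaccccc
The Gαs window held 29 CG dinucleotides at 80.0% G and C, the exon 1A window 22 at 63.2% and the Nesp window 14 at 61.6%.

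Grb10 is shown at its upstream start (chr11:12037421-12037670, − strand) and at the start 9449 bases downstream of it (chr11:12027972-12028221, − strand). Mest is shown at its upstream start (chr6:30733256-30733505, + strand) and at the start 4544 bases downstream of it (chr6:30737800-30738049, + strand), where the known methylation mark of Mest lies.
Grb10 upstream start: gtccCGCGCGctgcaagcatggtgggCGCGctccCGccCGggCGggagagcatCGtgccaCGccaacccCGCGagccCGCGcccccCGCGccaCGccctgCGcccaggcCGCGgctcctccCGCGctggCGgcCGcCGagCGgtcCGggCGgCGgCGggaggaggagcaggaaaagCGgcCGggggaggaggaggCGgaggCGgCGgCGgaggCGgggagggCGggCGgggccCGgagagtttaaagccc
Grb10 downstream start: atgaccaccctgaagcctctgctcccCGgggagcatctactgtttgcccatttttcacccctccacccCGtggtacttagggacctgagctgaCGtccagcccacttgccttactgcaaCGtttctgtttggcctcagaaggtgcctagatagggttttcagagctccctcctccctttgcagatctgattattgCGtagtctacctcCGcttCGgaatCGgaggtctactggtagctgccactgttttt
Mest upstream start: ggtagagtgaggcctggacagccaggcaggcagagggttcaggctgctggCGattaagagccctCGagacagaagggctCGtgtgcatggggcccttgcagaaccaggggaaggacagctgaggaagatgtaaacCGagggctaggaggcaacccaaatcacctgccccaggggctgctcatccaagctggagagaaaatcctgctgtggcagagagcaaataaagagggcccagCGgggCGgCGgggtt
Mest downstream start: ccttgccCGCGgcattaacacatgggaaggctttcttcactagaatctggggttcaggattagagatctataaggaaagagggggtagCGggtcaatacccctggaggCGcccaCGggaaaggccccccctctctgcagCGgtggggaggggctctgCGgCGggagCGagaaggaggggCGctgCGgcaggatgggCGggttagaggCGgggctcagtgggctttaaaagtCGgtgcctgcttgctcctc
The upstream window of Grb10 held 40 CG dinucleotides at 81.2% G and C, the highest count of all 46 windows of the imprinted genes, and its downstream window held 8 at 54.0%. In Mest the order was the other way, with 14 in the downstream window and 7 in the upstream one.

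Across the 32 imprinted genes with an entry in the RefSeq table, the 46 windows of 250 bases had a median of 10.5 CG dinucleotides and 60.2% G and C, against 6 and 52.4% over all 32817 windows of 27025 symbols. The motif TGCCGC, or GCGGCA on the other strand, is the core that the zinc finger protein ZFP57 binds when it is methylated. It was found in 7 of the 46 windows (15.2%), before starts of Copg2, Meg3, Mest, Plagl1, Zdbf2 and Zim1, and in 2847 windows of all symbols (8.68%). The Mest downstream window printed above holds it at 2 places, both on the other strand, with first bases 242 and 67 bases before the start. A second Mest window starts 3 bases away and holds the same matches, so these windows are not independent. A match describes the letters and not a bound site.

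Imprinted genes reached 1 FPKM at close to the share of all gene symbols and were mostly at low levels. A mean of at least 1 FPKM was reached by 23 of 39 (59.0%), against 51.9% of all gene symbols, and at least 1 FPKM in every file by 22 (56.4%), against 48.5%. Only 5 (12.8%) reached 10 FPKM, against 23.3% of all symbols, while 18 (46.2%) lay from 1 to under 10 FPKM, against 28.5%. At 0 in every file stood 4 imprinted genes (10.3%), against 29.9% of all symbols. Their median of 2.19 FPKM stood above the 1.25 FPKM of all symbols, but among genes above 0 the order turned, with 2.60 FPKM for 35 imprinted genes and 4.78 FPKM for 17060 symbols. The mean of log2(FPKM + 1) was also lower in imprinted genes, 1.70 against 1.87, and with a pseudocount of 0.1 it was higher, 0.44 against 0.38. Without replicate 3 the median of the imprinted genes was 1.46 FPKM. Snrpn and Snurf, which are listed apart but divide the same reads, are both among the 23 genes at 1 FPKM or more. The plot of shares at or above each level shows the crossing.

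**Figure D1:**
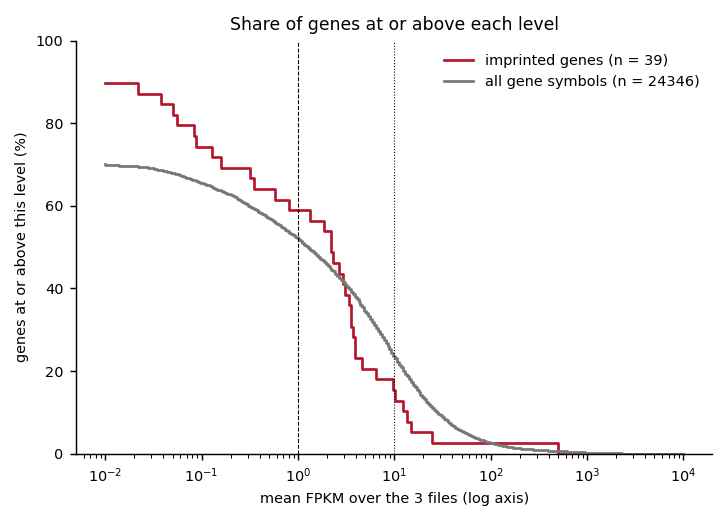
Share of imprinted genes (red, n = 39) and of all gene symbols (grey, n = 24346) whose mean FPKM over the 3 files reached the level on the log axis, with lines at 1 (dashed) and 10 FPKM (dotted). The red line is above the grey one at 1 FPKM (59.0% against 51.9%) and below it at 10 FPKM (12.8% against 23.3%).

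These counts rest on few fragments for many genes. Imprinted genes held 11048 recovered fragments in all, of which Gnas alone had 6467 (58.5%). At least 100 fragments over the 3 files were held by 13 genes, and 13 had under 10, the 4 listed at 0 included.

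**Figure D2:**
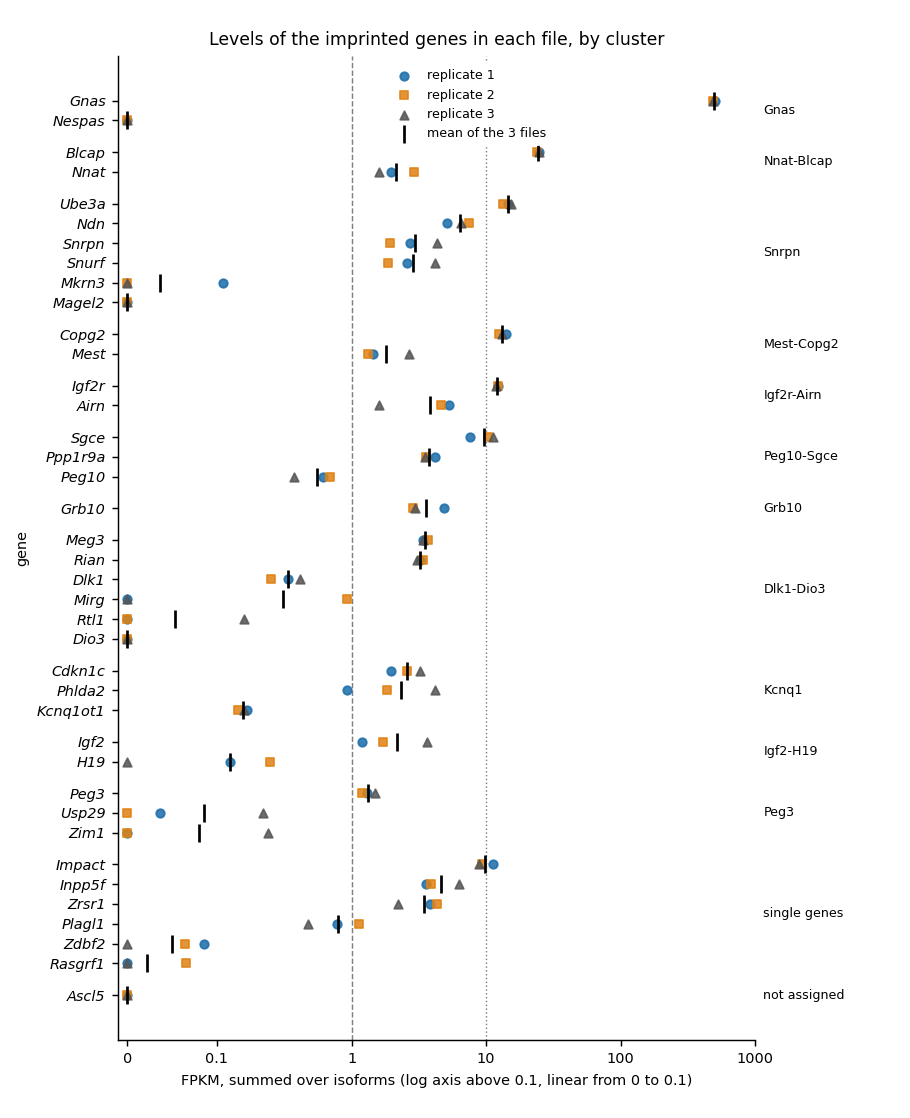
FPKM of each of the 39 imprinted genes in replicates 1 (circle), 2 (square) and 3 (triangle), on an axis that is linear from 0 to 0.1 and logarithmic above, with the mean of the 3 files as a vertical bar, grouped by imprinted cluster. Gnas stands apart at a mean of 493 FPKM, 5 genes have a mean at or above the dotted line at 10 FPKM, and Nespas, Magel2, Dio3 and Ascl5 lie at 0 in all files.

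Gnas (chr2:174284320-174346742), which encodes Gαs, the subunit that couples hormone receptors to adenylyl cyclase, was the most abundant of the imprinted genes. It had 503, 488 and 487 FPKM in replicates 1, 2 and 3, a mean of 493 ± 8.82 FPKM, and ranked 151 among all symbols. Most of it came from the Gαs start. The isoforms that begin there summed to 341, 317 and 320 FPKM, or 67.9%, 64.9% and 65.7% of the gene (mean share 66.2% ± 1.56). Gαs is known to be read from both alleles in most tissues and mainly from the maternal allele in a few, such as the proximal tubule of the kidney.

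The exon 1A transcript NR_003258, non-coding and known to be paternally expressed, was listed at 159, 168 and 166 FPKM. That was 31.6%, 34.4% and 34.1% of Gnas, a mean share of 33.4% ± 1.58. It shares 1160 of its 1427 annotated exon bases (81.3%) with the Gαs isoform NM_201616, which leaves 267 bases of its own and 556 bases of NM_201616 to tell them apart (GENCODE annotation). As quantified, NR_003258 and NM_201616 are 1452 and 1765 bases long, so these base counts are approximate. The files give no reads per exon, so how many fragments lie in those bases is not known. The other isoform with an exon 1A start, NM_001310083, which RefSeq lists as coding, was listed at 1.98, 1.73 and under 0.01 FPKM.

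The Gαs isoforms differ in a 45-base exon, known as exon 3 (chr2:174336747-174336791), which lengthens the linker region of the protein. The annotated transcripts matched to them have 1716 and 1789 bases, whereas NM_201616 and NM_001077510 were quantified at lengths of 1765 and 1704 bases. As quantified, NM_201616 starts at base 174330070 and NM_001077510 at base 174330089, and both end at base 174346742. The split between them thus does not rest on exon 3 alone. In the annotated transcripts, a later exon that ends at base 174341707 also differs. It starts at base 174341653 (55 bases) for NM_201616 and at base 174341650 (58 bases) for NM_001077510. The outer ends of the annotated transcripts are not those quantified, so they do not give the bases that divide the isoforms there. NM_201616, which holds exon 3, had 181, 189 and 120 FPKM, and NM_001077510, which lacks exon 3, had 160, 127 and 200 FPKM. As mean shares of the gene they were 33.2% ± 7.504 and 33.0% ± 7.51. The first was the larger in replicates 1 and 2 and the second in replicate 3. In replicate 3 the deposited 95% bounds of NM_201616 (99.3 to 141 FPKM) did not overlap those of replicate 1 (166 to 197 FPKM) or replicate 2 (173 to 205 FPKM), while the sum of both isoforms stayed within 317 to 341 FPKM.

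The other Gnas products were rare or not seen. The Nesp start, with isoforms NM_019690 and NM_022000, had 0.714, 1.43 and 1.08 FPKM (mean 1.07 ± 0.357), a share of 0.219% ± 0.0754. The isoforms NM_001077507, NM_001310085, NM_201617 and NM_201618 begin at the start of Gnasxl, the paternally expressed large form XLαs, and held values worth no fragment in any file, with upper bounds of at most 0.588 FPKM. Nespas, the paternally expressed antisense RNA across the Nesp start, was listed at 0 in every file, where 3 fragments over the 3 files would make 0.163 FPKM. Of its annotated exon bases 31.4% overlap Gnas exons on the opposite strand, and whether strand was used in the counting is not stated in the labels or headers.

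**Figure D3:**
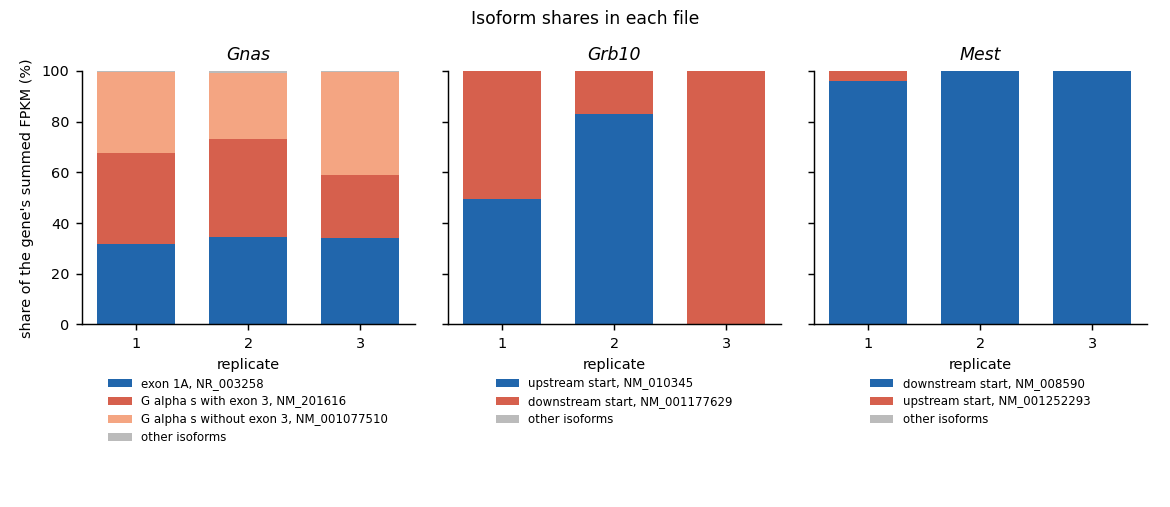
Share of the gene's summed FPKM held by each named isoform of Gnas, Grb10 and Mest in replicates 1, 2 and 3, as stacked bars of 100%. The exon 1A share of Gnas keeps between 31.6% and 34.4%, the Grb10 starts trade places between files, and the downstream start of Mest holds at least 96.2%.

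Grb10 (chr11:11930499-12037420), an adaptor that binds the insulin and insulin-like growth factor receptors and restrains growth, had 4.89, 2.87 and 2.97 FPKM (mean 3.58 ± 1.14; 158 fragments). In mice an upstream promoter is known to be used on the maternal allele in most tissues, and downstream promoters on the paternal allele in neurons. The split between its starts was not stable over the files. NM_010345, from the upstream start, had 2.41 and 2.39 FPKM in replicates 1 and 2 and 0.000341 FPKM in replicate 3, where its deposited upper bound was 0.327 FPKM. NM_001177629, from the downstream start, had 2.47, 0.483 and 2.97 FPKM. The share of the downstream start was thus 50.6%, 16.8% and 100%, a mean of 55.8% ± 41.8, and without replicate 3 it was 33.7%. The isoforms share 4686 exon bases, which is 92.6% of NM_010345 and 98.5% of NM_001177629, and 17 fragments stood behind the gene in replicate 3. At this depth no order between the starts can be given.

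Mest (chr6:30733506-30748466), a paternally expressed protein of the hydrolase fold, was low, with 1.44, 1.32 and 2.68 FPKM (mean 1.81 ± 0.753; 33 fragments). Nearly all of it was assigned to the downstream start in every file. NM_008590 held 96.2%, 100% and 99.9% of the gene, a mean share of 98.7% ± 2.17. NM_001252293, from the upstream start, had 0.0545 FPKM in replicate 1 and under 0.001 FPKM in the others, and NM_001252292, which starts 3 bases from NM_008590, reached at most 0.00178 FPKM. NM_001252293 shares 2275 exon bases with NM_008590, 95.5% of its own, which leaves 108 bases particular to it. Its deposited upper bound in replicate 3 was 0.723 FPKM. With 13, 12 and 8 fragments for the gene in replicates 1, 2 and 3, the split is uncertain at this depth. Copg2, a coat protein subunit of Golgi vesicles that runs towards Mest on the other strand and is known to be maternally expressed in brain, stood higher, at 13.9, 12.5 and 13.1 FPKM (mean 13.2 ± 0.727). Their ends overlap by 912 exon bases, 23.1% of Mest and 17.8% of Copg2, where reads without strand cannot be told apart.

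Igf2 (chr7:142650768-142661035), the paternally expressed fetal growth factor, had 1.20, 1.72 and 3.65 FPKM (mean 2.19 ± 1.29; 56 fragments). H19, the maternally expressed non-coding RNA that shares its enhancers, had 0.125, 0.249 and 0 FPKM, which is 3 fragments in all. The Igf2-H19 cluster was thus read mostly at Igf2. Exons of Gm49394, an annotated coding gene on the same strand, cover 62.8% of the exon bases of Igf2, so a part of the Igf2 reads is uncertain. The counting interval of Igf2 on the pooled fragments ran from 1.34 to 2.297 FPKM and that of H19 from 0.0331 to 0.469 FPKM (exact Poisson, 95%, counting error only), so they did not overlap. Igf2r (chr17:12682406-12769706), the maternally expressed receptor that clears Igf2 and carries lysosomal enzymes, was among the highest imprinted genes, at 12.2, 12.2 and 11.7 FPKM (mean 12.1 ± 0.280; 939 fragments). Its values lay within 1.04-fold of each other, and its exons overlap no other gene in the annotation. Airn, the paternally expressed antisense RNA that silences Igf2r on its allele, had 5.26, 4.62 and 1.59 FPKM. Airn is known to be mostly unspliced over a long stretch, whereas the entries of the files are spliced isoforms of 413 to 1399 bases, and its 25 fragments are counted against these lengths.

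In the neighbouring Kcnq1 cluster the maternally expressed growth inhibitors were detected. Cdkn1c (chr7:143458339-143461050), the cyclin-dependent kinase inhibitor p57, had 1.97, 2.58 and 3.23 FPKM (mean 2.60 ± 0.629; 37 fragments). Phlda2, a restrainer of placental growth, had 0.921, 1.85 and 4.20 FPKM, but on 9 fragments, and its interval ran from 0.815 to 3.38 FPKM. Kcnq1ot1, the paternally expressed non-coding RNA that silences the cluster, had 0.168, 0.143 and 0.159 FPKM (mean 0.157 ± 0.0130). It is scaled to a length of 83437 bases and held 114 fragments, more than Igf2, Cdkn1c and Phlda2 together. An antisense gene overlaps 30.7% of the exon bases of Cdkn1c, so its reads are uncertain without strand.

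The Dlk1-Dio3 cluster on chromosome 12 was read on its maternal, non-coding side. Meg3 (chr12:109540996-109571729), a long non-coding RNA, had 3.40, 3.68 and 3.41 FPKM (mean 3.50 ± 0.157; 246 fragments), and Rian, which hosts small nucleolar RNAs, had 3.25, 3.40 and 3.06 FPKM (mean 3.24 ± 0.172; 99 fragments). Their counting intervals, 3.10 to 3.99 and 2.67 to 4.01 FPKM, overlap. Mirg, a host of microRNAs further along, had 0, 0.932 and 0 FPKM on 4 fragments. On the paternal, coding side Dlk1, a membrane protein that restrains adipocyte differentiation, had 0.340, 0.253 and 0.413 FPKM on 11 fragments. Rtl1, a retrotransposon-derived gene of the placenta, had 0, 0 and 0.159 FPKM, a single fragment. Dio3, the deiodinase that inactivates thyroid hormone, was listed at 0 in every file, where 3 fragments would make 0.200 FPKM. The interval of Meg3 did not overlap that of Dlk1 (0.156 to 0.560 FPKM). Near-identical stretches (97% identity over 100 bases or more) in other genes were found for 17 of the 39 genes, Meg3 and Rian among them, so a part of their reads is uncertain. The search did not leave out genes at the same place. The 17 thus include exon overlaps such as that of Mest and Copg2 and do not count copies elsewhere.

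Of the cluster around Peg3 on chromosome 7, only Peg3 itself, a paternally expressed zinc finger protein, stood above 1 FPKM, with 1.31, 1.19 and 1.49 FPKM (mean 1.33 ± 0.155; 73 fragments). Usp29, a deubiquitinase that starts beside it on the other strand, had 0.0361, 0 and 0.220 FPKM on 3 fragments. Zim1, a maternally expressed zinc finger gene, had 0, 0 and 0.241 FPKM on 1 fragment. The starts of Peg3 and Usp29 lie head to head, yet their intervals (1.01 to 1.61 and 0.00959 to 0.136 FPKM) did not overlap.

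Peg10 and Sgce on chromosome 6 also start back to back and are both paternally expressed, and their levels lay far apart. Sgce (chr6:4674350-4747204), the epsilon subunit of the sarcoglycan complex of muscle membranes, had 7.59, 10.2 and 11.3 FPKM (mean 9.72 ± 1.93; 126 fragments). Peg10, a retrotransposon-derived gene needed for the placenta, had 0.610, 0.691 and 0.371 FPKM (mean 0.557 ± 0.166; 35 fragments). Every Sgce value lay above every Peg10 value. Ppp1r9a, the actin-binding protein neurabin, known to be maternally expressed in some tissues, had 4.20, 3.58 and 3.51 FPKM (mean 3.76 ± 0.380).

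The Snrpn cluster on chromosome 7, whose human counterpart is lost in Prader-Willi and Angelman syndromes, ranged from 0 to over 14 FPKM. Ube3a (chr7:59228750-59306727), a ubiquitin ligase known to be maternal in neurons and read from both alleles elsewhere, had 14.7, 13.4 and 15.4 FPKM (mean 14.5 ± 0.992; 598 fragments), above the other genes of the cluster in every file. Ndn, a growth suppressor of postmitotic neurons of the MAGE family, had 5.15, 7.47 and 6.49 FPKM (mean 6.37 ± 1.16; 83 fragments). Snrpn, which encodes the splicing protein SmN, and Snurf, the reading frame upstream of it on the same transcript, had means of 2.98 ± 1.21 and 2.86 ± 1.16 FPKM. Every annotated exon base of Snurf lies within Snrpn, so the files divide the same reads between them. Their sum was 5.27, 3.80 and 8.45 FPKM, which is 36, 26 and 19 fragments. Mkrn3, a makorin RING finger gene, had 0.111, 0 and 0 FPKM on 1 fragment. Magel2, another MAGE family gene, was listed at 0, where 3 fragments would make 0.0757 FPKM. In the stretch of Ndn, Magel2 and Mkrn3, which neighbour each other, Ndn thus stood apart, with an interval of 5.05 to 7.85 FPKM.

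Nnat lies within an intron of Blcap on chromosome 2. Blcap (chr2:157556362-157566361), a small membrane protein known to be maternally expressed in brain, had 24.6, 23.9 and 24.8 FPKM (mean 24.4 ± 0.466; 410 fragments), second to Gnas. Nnat, the paternally expressed neuronatin of neuronal and endocrine cells, had 1.95, 2.90 and 1.60 FPKM (mean 2.15 ± 0.672; 21 fragments).

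Imprinted genes outside these clusters had means of 0 to 9.80 FPKM. Impact (chromosome 18), an inhibitor of the stress kinase Gcn2, was highest among them, at 11.2, 9.30 and 8.86 FPKM (mean 9.80 ± 1.27; 290 fragments). Inpp5f, an inositol phosphatase of which a short form is imprinted in brain, had 3.58, 3.87 and 6.33 FPKM, and Zrsr1, a splicing factor retrogene inside Commd1, had 3.85, 4.33 and 2.23 FPKM. Replicate 3 was the highest file for Inpp5f and the lowest for Zrsr1. Commd1 had 57.7 ± 12.8 FPKM, and its exons on the opposite strand overlap 412 exon bases of Zrsr1 (9.17%). A part of the Zrsr1 reads is thus uncertain without strand. Plagl1, a zinc finger regulator of fetal growth, had 0.778, 1.14 and 0.473 FPKM, on either side of 1. Zdbf2, a zinc finger gene of the brain, had 0.0852, 0.0638 and 0 FPKM on 7 fragments. Rasgrf1, a Ras exchange factor imprinted in neonatal brain, had 0, 0.0650 and 0 FPKM on 1 fragment. Ascl5, a basic helix-loop-helix gene to which no parental origin was assigned here, was listed at 0, but with a length of 567 bases the limit is as high as 0.845 FPKM.

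Grouped by the allele known to be expressed, the higher levels were on the maternal side. Of 24 paternally expressed genes, 12 reached 1 FPKM, 0 reached 10 FPKM and 3 were listed at 0, where all symbols had 51.9%, 23.3% and 29.9%, so the share at 1 FPKM was near that background. Snrpn and Snurf, which divide the same reads, are both among these 12. Of 12 maternally expressed genes, 9 reached 1 FPKM, 4 reached 10 FPKM and 0 were listed at 0. The medians were 1.06 FPKM in paternally expressed genes and 3.37 FPKM in maternally expressed genes, with an SD of the file medians of 0.102 and 0.0862 FPKM. Gnas and Grb10, whose allele depends on the promoter, are in neither class. Much of the maternal side is genes whose imprinting is limited to some tissues or isoforms: Blcap, Ube3a and Copg2, 3 of the 4 at 10 FPKM or more, and Ppp1r9a. Without these, 5 of 8 maternally expressed genes reached 1 FPKM and their median was 2.46 FPKM, but this median was uneven over the files, at 1.45, 2.22 and 3.15 FPKM (SD 0.851). Of the 22 paternally expressed genes of broad imprinting, 11 did so, with a median of 1.06 FPKM and file medians of 0.988, 1.16 and 0.983 FPKM.

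**Figure D4:**
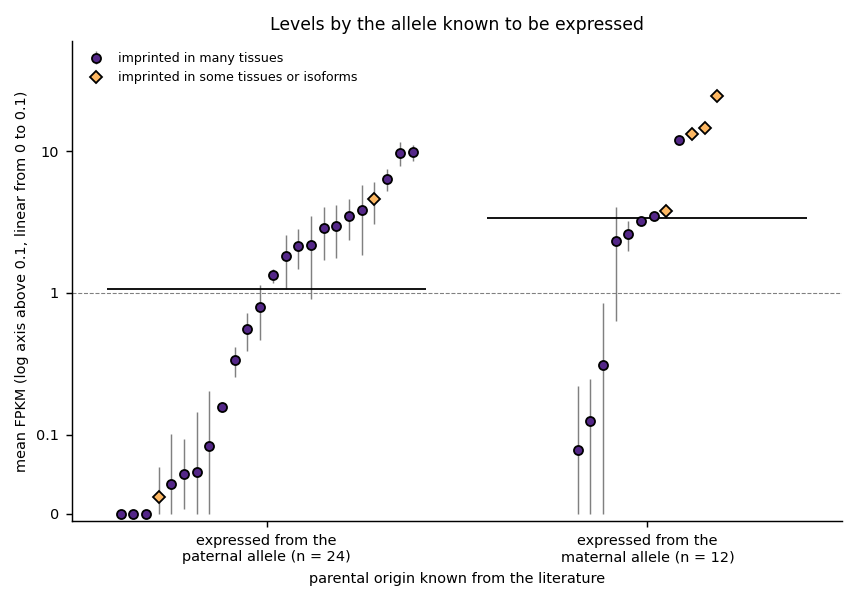
Mean FPKM of each gene (points, in order of level) with its SD over the 3 files (grey bars), for 24 paternally and 12 maternally expressed genes, on an axis that is linear from 0 to 0.1 and logarithmic above. Horizontal lines are the class medians, 1.06 and 3.37 FPKM, and diamonds mark genes whose imprinting is limited to some tissues or isoforms, which hold 3 of the 4 maternal places at 10 FPKM or more.

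Genes whose imprinting is limited to some tissues or isoforms had most of the high levels. Of 7 genes of limited imprinting, Gnas included, 6 reached 1 FPKM and 4 reached 10 FPKM, with a median of 13.2 FPKM, beside 51.9% and 23.3% of all symbols. Of 31 genes of broad imprinting, 17 reached 1 FPKM and only Igf2r reached 10 FPKM, with a median of 1.81 FPKM. Among the 7 non-coding RNAs, 3 reached 1 FPKM (Airn, Meg3 and Rian), and 20 of 32 coding genes did so, beside 51.9% of all symbols. With 7 non-coding RNAs this is not read as a contrast. The assignment to these classes was made by hand from the literature, with the levels of these data known, and was not tested.

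Of the imprinted genes that reached 1 FPKM, 11 have 2 or more isoforms. The leading isoform was the same in all files in 6 of them: Cdkn1c, Meg3, Mest, Sgce, Snrpn and Ube3a. In the other 5, Airn, Gnas, Grb10, Igf2 and Nnat, it changed between files. Ube3a came mainly from NM_001033962 (90.2%, 71.2% and 76.5%), and Sgce from NM_011360 (92.7%, 81.1% and 74.4%). Snrpn came to 100% in every file from NM_013670, which begins at the same base as Snurf, and its isoforms from the upstream starts held values worth no fragment. Meg3 was divided between NR_003633 (62.6%, 54.0% and 73.0%) and the shorter NR_027652 (33.8%, 39.4% and 27.0%). Cdkn1c came from NM_009876 and Airn in every file at least in part from NR_002853 (39.7%, 50.9% and 100%). Igf2 was assigned to NM_010514 at 64.6% in replicate 1 and to NM_001122737 at 94.2% and 91.4% in replicates 2 and 3, where NM_010514 had none. Nnat was assigned to NM_010923 at 100% in replicate 1 and to NM_180960 at 99.9% and 99.3% in replicates 2 and 3. With 56 fragments for Igf2 and 21 for Nnat, no order between these isoforms can be read at this depth.

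No difference between the files was called for an imprinted gene. In the 12 of them listed with a single isoform at 1 FPKM or more, a chi-square test of the files against their weighted mean, with Benjamini-Hochberg adjustment over 8771 genes, called 0, against 6 genes (0.0684%) in all. At an unadjusted p under 0.05 it called 1 imprinted gene and 436 genes in all. That gene was Inpp5f, which was highest in replicate 3. The median ratio of the variance between files to the sampling variance was 1.12 in the 12 genes and 0.677 over all genes tested, where sampling noise alone gives 0.693.

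Genes of the machinery that keeps imprints were mostly expressed. Of 21 genes that write, read, protect or remove the methylation mark or act with it on chromatin, 17 reached 1 FPKM, with a median of 6.45 FPKM. Among all symbols 51.9% did so, with a median of 1.25 FPKM. Trim28, the corepressor that ZFP57 recruits, was highest at 29.1 ± 5.76 FPKM, followed by the histone methyltransferase Ehmt2 (22.9 ± 1.77), the insulator protein Ctcf (21.5 ± 1.56) and the Polycomb subunit Eed (12.3 ± 1.68). Under 1 FPKM in every file were the de novo methyltransferase Dnmt3b (0.365 ± 0.0761 FPKM), its germ line cofactor Dnmt3l (0.369 ± 0.423 FPKM) and the methylcytosine oxidase Tet1 (0.205 ± 0.0390 FPKM). Zfp57, whose motif is counted above, had 0.836, 0.418 and 1.56 FPKM, a mean of 0.939.

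The partners of Igf2, Igf2r and Grb10 in the insulin-like growth factor pathway were mostly expressed. At 1 FPKM or more stood 12 of 14, against 51.9% of all symbols, with medians of 4.89 and 1.25 FPKM. Binding proteins led: Igfbp7 had 112 ± 8.96, Igfbp4 41.5 ± 1.34, Igfbp5 27.5 ± 0.783 and Igfbp3 23.7 ± 3.05 FPKM. The growth factor Igf1 had 2.64 ± 0.732 FPKM, which overlaps the 2.19 ± 1.29 FPKM of Igf2. The fetal RNA-binding proteins Igf2bp1 (0.0215 ± 0.0372 FPKM) and Igf2bp3 (0.338 ± 0.202 FPKM) stayed under 1 FPKM in every file.

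Neighbours of the members in the same clusters were also read, and 46 of 47 had a symbol in the files. Some of these neighbours are themselves imprinted in some tissues, so they are not a set without imprinting. Of the 46, 26 reached 1 FPKM and 11 were listed at 0, where all symbols had 51.9% and 29.9%. Their median was 2.07 FPKM, beside 2.19 FPKM for the members and 1.25 FPKM for all symbols. The translation factor Eef1b2, in the region of Zdbf2, had 210 ± 6.05 FPKM, and the tetraspanin Cd81 of the Kcnq1 region had 139 ± 7.35 FPKM. The protease Ctsz near Gnas had 60.2 ± 5.21 FPKM and the paraoxonase Pon2 near Peg10 had 57.9 ± 1.44 FPKM. Ins2 and Th, between Igf2 and Ascl2, held no fragment, where 3 fragments would make 1.19 and 0.214 FPKM, and Tspan32 had 0.382 ± 0.331 FPKM.

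The tissue label was checked against markers. All 7 genes of colon epithelium reached 1 FPKM, with a median of 212 FPKM, as did all 4 of smooth muscle (416 FPKM), all 4 of fibroblasts (42.9 FPKM), all 5 of enteric neurons (3.64 FPKM) and all 4 of enteric glia (2.70 FPKM). The enteroendocrine markers Chga, Chgb and Pyy were also detected, Chga at 26.1 ± 4.02 FPKM. Markers of pancreatic islets and placenta were listed at 0. Of the 3 brain markers, the neuronal Neurod6 was listed at 0, while the glial and myelin genes Gfap and Mbp had 2.92 ± 0.478 and 11.0 ± 0.887 FPKM. The liver genes Alb and Ahsg stood at 129 ± 5.35 and 12.6 ± 0.693 FPKM. Which cells gave the imprinted transcripts was not tested.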

How the data were processed

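Per the labels' protocols, polyadenylated RNA was sequenced. The authors deposited 1 Cufflinks isoform table per replicate, which holds FPKM with 95% bounds per the file headers. The submitters' processing notes list Cufflinks 2.2.1, TopHat2 2.1.1 and Bowtie2 2.3.4.3. Strand setting and the handling of reads with several matches: not given in the sources used here. These notes name GRCm39, but the positions are those of GRCm38: 22536 of 23002 symbols (98.0%) start or end within 1000 bases of RefSeq GRCm38.p6.

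FPKM were summed per symbol. The squared standard error over the FPKM was read as the FPKM worth of 1 fragment, and its reciprocal against length gave the depth. Of 92 values above 0, 82 came within 0.1 of whole fragments. Intervals and limits (3 fragments over the 3 files for a listing at 0) cover counting error only. A chi-square test with sampling variances compared the files, over single-isoform genes at 1 FPKM or more, with Benjamini-Hochberg adjustment at 0.05; the procedure was tested on simulated data. Exon overlaps, shared exon bases and matches to other genes (BLAST+ 2.17.0, at least 100 bases at 97% identity) come from GENCODE M21, in which 21 of the 39 genes overlap another gene's exons, 17 of them on the opposite strand. The genes, lists and classes were chosen with earlier results of these data known. Every gene of the list is named, with every isoform of Gnas, Grb10 and Mest, isoforms of at least 20% in every file for others at 1 FPKM or more, and of the other lists the 4 highest and up to 3 under 1 FPKM in every file; Igf1, Zfp57 and the isoforms of unstable genes were named after their values were seen. Alternatives covered thresholds, TPM, the highest isoform, weights, filters, pseudocounts and leaving out replicates. Tools were matplotlib 3.10.9, SciPy 1.17.1, pandas 2.3.3, numpy 2.4.6 and Python 3.11.15.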

Additional observations from a re-analysis of the deposited data

How the results depend on the processing

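No paired analysis was possible because the series holds 1 group. The count of imprinted genes at 1 FPKM or more ran from 21 to 25 under every threshold, scaling and file set tried. Rescaling each file to the common sum of TPM multiplies all values: 9 genes then reached 10, and the medians were 5.12 for imprinted genes, 2.94 for all symbols, 2.49 for paternally and 7.88 for maternally expressed genes. With genes above 0 only, the medians were 2.60 FPKM for imprinted genes and 4.78 FPKM for all symbols. Weighting the files by fragments gave 1.78 FPKM for imprinted genes, and the highest isoform gave 1.21 FPKM for all symbols. Leaving out each replicate in turn gave 1.46 to 2.68 FPKM for imprinted genes and 3.28 to 3.43 FPKM for maternally expressed genes. Without genes of limited imprinting, 5 maternally expressed genes reached 1 FPKM, with a median of 2.46 FPKM. Only NM_001177629 of Grb10 has a lower bound above 0 in every file, and its share is 100% if the other isoform is dropped; leaving out a replicate gave 33.7% to 75.3%. The 6 genes called between files became 2 without replicate 1 and 3 without replicate 2, and 6 without replicate 3. Single levels moved by more than 1 SD in 29 of 39 genes under TPM and in 3 (Gnas, Meg3 and Ube3a) with the highest isoform. Depth limits the 13 genes with under 10 fragments, and no value here holds a spread between animals.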
